A study of Petunia x hybrida with 8 samples.

Results

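Scaffold Peaxi162Scf00408 is 1 of the assembled pieces of petunia genome sequence to which the gene IDs and the ChIP peaks of this series refer. Its genes were taken as the IDs on this scaffold with at least 10 read counts summed over the 6 RNA libraries, which gave 38 of its 52 IDs, and 38 of 21065 IDs with as many counts in the whole table. The scaffold had drawn attention because 4 of its genes were called higher in odo1i corolla than in wild type corolla, so its genes were in effect chosen by the RNA difference between these groups, and that difference is given below as a description, without a test of the list. The petunia (Petunia x hybrida) corolla, the ring of petals, was sampled as polyA RNA in 3 libraries labelled odo1i (replicates 1, 2 and 4) and 3 wild type libraries (WT, replicates 1, 2 and 4). In the second assay, crosslinked corolla chromatin was precipitated with an antibody against GFP in 1 library named pODO1 and 1 library named 35S. The labels do not spell out these names. odo1i is read here as silencing of ODO1, pODO1 as the promoter of ODO1 itself, and 35S as the strong plant virus promoter that is active in most plant tissues. The names of both peak lists add ODO1 after the promoter, so the tagged protein in both is read here as ODO1. No genotype, flower age, line or number of plants is given for any group, and the labels do not tie replicates to separate plants, so the spread between libraries may be technical.

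ODO1, short for ODORANT1, is a transcription factor of the R2R3-MYB family that acts in petunia petals. It raises the supply of precursors from the shikimate pathway, the route to aromatic amino acids, from which petals make the benzenoid and phenylpropanoid volatiles of their evening scent. Genes that respond to a lowered ODO1 level can be its direct targets or can change at a distance through metabolism or other regulators, and a ChIP peak marks where a tagged protein was recovered on DNA. The sources used here pair none of the 38 IDs with a gene name, a function, a sequence or a position on the scaffold. The genes are therefore known by ID and by their order along the ID numbers, shortened below to the part after the scaffold name (g00225 for Peaxi162Scf00408g00225). The level of ODO1 itself and markers of corolla cells were not analysed here, so neither label was checked against them.

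Library totals ran from 18841324 to 20034220 counts in odo1i and from 18612881 to 20591367 in WT. Levels are given in CPM, the counts of a gene scaled to the TMM-adjusted library total. They are not divided by transcript length, so sums, shares and ranks over genes also reflect length and do not compare numbers of transcripts. In bulk tissue, fewer cells of a type and less RNA per cell cannot be told apart. WT replicate 4 stood apart from the other libraries. At 1217 of 17667 tested genes it exceeded all other libraries more than 2-fold, taken on the log2(CPM + 1) scale, and the other 5 libraries did so at 6 to 134 genes each. Results that rest on it are given with and without it.

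Of the 52 IDs of the scaffold, 10 had no count in any library and 4 had 1 to 9 counts. The 38 genes that remained make up 73.1% of the IDs, against 63.9% of the 32928 IDs of the table that, like these, are written with a g. The gene just inside the limit was g00712, with 14 counts in all, and the ID just outside was g00321, with 7. Of the 38 genes, 34 passed the filter on low counts and were tested, and g00044, g00058, g00226 and g00712, with 14 to 62 counts each over the 6 libraries, were not. The tested genes averaged 1.08 to 148.5 CPM over the 6 libraries, with a median of 13.7 CPM, against a median of 14.5 CPM over all tested genes.

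**Figure D1:**
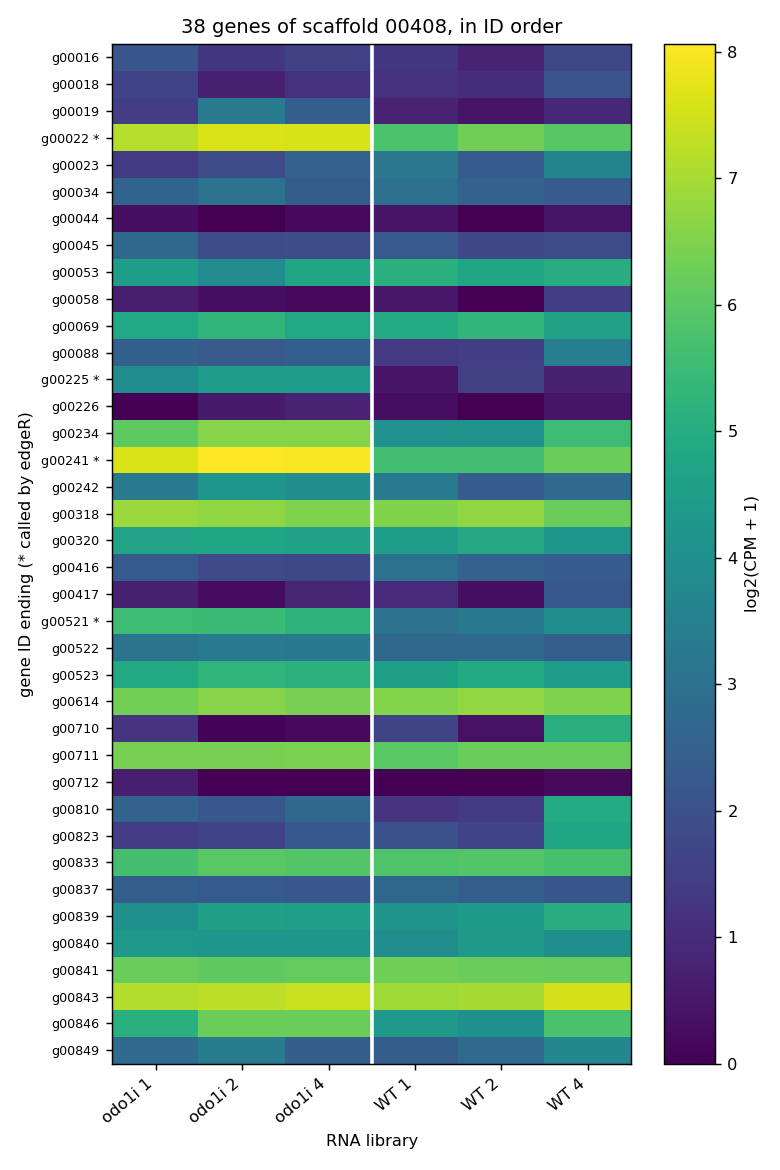
Level of each of the 38 genes in each of the 6 RNA libraries, as log2(CPM + 1) by colour, with genes in ID order from top to bottom and the odo1i libraries left of the WT libraries. The 4 genes called by edgeR carry a star and are brighter in the 3 odo1i columns, while g00710, g00810 and g00823 are brightest in WT replicate 4.

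The 4 genes that chose the scaffold were g00022, g00225, g00241 and g00521, called higher in odo1i by edgeR (quasi-likelihood F test, Benjamini-Hochberg adjustment over all tested genes, adjusted p under 0.05). Among all 17667 tested genes 0.628% were called, 0.374% as higher and 0.255% as lower, and nothing is read from the share on the scaffold, since it was chosen for it. No gene of the scaffold was called lower by edgeR, DESeq2 or limma-voom, which called 0.628%, 6.41% and 0.662% of all tested genes, and DESeq2 gave no p for 2 of its genes, g00810 and g00823. At an unadjusted p under 0.05 edgeR had 9 genes of the scaffold higher and 2 lower, against 7.10% higher and 8.16% lower among all tested genes. The 9 include the 4 called genes, so this count is partly built in as well.

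g00225 had 14.2, 20.98 and 20.6 CPM in odo1i replicates 1, 2 and 4, against 0.340, 1.86 and 0.686 CPM in WT replicates 1, 2 and 4. The odo1i libraries were far above the WT libraries, which held only 7, 34 and 13 counts of this gene. Its mean was 18.6 ± 3.78 CPM in odo1i and 0.961 ± 0.795 CPM in WT (SD, n = 3 each), and its log2 fold change was 4.28 ± 0.60 (SE). The lowest odo1i library was 7.67 times the highest WT library.

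g00241 had 191.5, 266.05 and 253.3 CPM in odo1i replicates 1, 2 and 4, against 49.3, 49.3 and 74.6 CPM in WT replicates 1, 2 and 4. The groups were well apart, WT replicate 4 was the highest of its group and odo1i replicate 1 the lowest of its own. Its mean was 236.9 ± 39.9 CPM in odo1i and 57.7 ± 14.6 CPM in WT (SD, n = 3 each), and its log2 fold change was 2.04 ± 0.23 (SE).

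g00022 had 141.5, 191.8 and 191.3 CPM in odo1i replicates 1, 2 and 4, against 53.4, 78.97 and 61.4 CPM in WT replicates 1, 2 and 4. Here too the groups did not overlap and odo1i replicate 1 was the lowest of the odo1i libraries. Its mean was 174.9 ± 28.9 CPM in odo1i and 64.6 ± 13.1 CPM in WT (SD, n = 3 each), and its log2 fold change was 1.44 ± 0.20 (SE).

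g00521 had 44.7, 44.5 and 36.4 CPM in odo1i replicates 1, 2 and 4, against 7.30, 8.57 and 15.1 CPM in WT replicates 1, 2 and 4. The lowest odo1i library was 2.41 times the highest WT library, which was replicate 4. Its mean was 41.8 ± 4.74 CPM in odo1i and 10.3 ± 4.19 CPM in WT (SD, n = 3 each), and its log2 fold change was 2.02 ± 0.30 (SE).

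Together these 4 genes held 31.8%, 34.97% and 34.7% of the summed CPM of the 38 genes in odo1i replicates 1, 2 and 4, against 12.9%, 15.1% and 13.9% in WT replicates 1, 2 and 4. The other 34 genes summed to 842.2, 972.9 and 944.1 CPM in the odo1i libraries and to 742.9, 780.7 and 941.3 CPM in the WT libraries. The larger share of the 4 genes in odo1i, and the closer sums without them, follow from how these genes were chosen. The sums without them overlapped only through WT replicate 4, which lay above odo1i replicate 1. Those of WT replicates 1 and 2, 742.9 and 780.7 CPM, lay below every odo1i sum. Such sums follow the most abundant genes and do not show that most of the 34 genes were higher in odo1i. With all libraries, the median log2 fold change of the 30 tested genes not called was 0.014.

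All 4 calls ended together when any odo1i library or WT replicate 1 was left out, and stood without WT replicate 4. Without odo1i replicate 1, 2 or 4, or without WT replicate 1, edgeR called 0 genes of the scaffold, with 10, 6, 6 and 8 of its genes higher and 2, 0, 2 and 2 lower at an unadjusted p under 0.05. Of all tested genes 6.05%, 4.36%, 4.12% and 5.35% were under 0.05 and higher in these fits, and 6.29%, 4.75%, 5.42% and 8.19% were under 0.05 and lower. In the same fits 0.0219%, 0%, 0.0548% and 0.0165% of all tested genes were called. Without WT replicate 2 edgeR called g00225 alone, among 0.114% of all tested genes. Without WT replicate 4 it called 5, the same 4 and g00234, among 2.42%. With the replicate number as a block, under which 1.1% of all tested genes were called, g00521 lost its call and the other 3 genes kept theirs. The log2 fold changes themselves moved less with 1 library left out, or under another scaling, filter, tool or blocking, and stayed between 3.87 and 5.18 for g00225, 1.94 and 2.28 for g00241, 1.32 and 1.62 for g00022 and 1.83 and 2.39 for g00521.

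**Figure D2:**
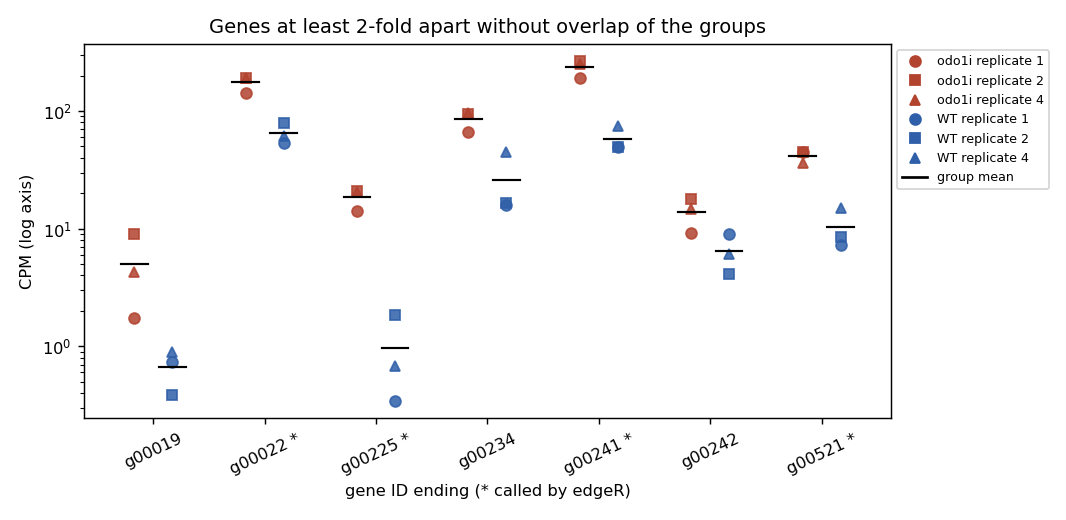
CPM on a log axis in each RNA library for the 7 genes of the scaffold whose groups did not overlap and whose log2 fold change was at least 1 in size, with odo1i left of WT, a symbol for each replicate and a bar at the group mean. In g00225 the lowest odo1i library is 7.67 times the highest WT library, while in g00242 the nearest odo1i and WT libraries nearly touch, at 9.19 and 9.05 CPM.

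A further 3 genes, g00019, g00234 and g00242, had a log2 fold change of at least 1 with no overlap of the groups but were not called. All 7 such genes were higher in odo1i. Over all tested genes 2.68% were of this kind in that direction and 4.13% in the other. The 7 include the called genes that chose the scaffold, so their number and direction are partly built in and nothing is read from them.

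g00234 had 66.0, 94.9 and 95.7 CPM in odo1i replicates 1, 2 and 4, against 15.95, 16.4 and 44.9 CPM in WT replicates 1, 2 and 4. WT replicate 4 was well above the other WT libraries and still below every odo1i library. The log2 fold change was 1.73 ± 0.43 (SE) with all libraries and 2.40 without WT replicate 4.

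g00242 had 9.19, 17.9 and 14.6 CPM in odo1i replicates 1, 2 and 4, against 9.05, 4.10 and 6.13 CPM in WT replicates 1, 2 and 4. Its highest WT library lay just under its lowest odo1i library, and its log2 fold change was 1.11 ± 0.37 (SE).

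g00019 had 1.75, 8.99 and 4.29 CPM in odo1i replicates 1, 2 and 4, against 0.730, 0.382 and 0.898 CPM in WT replicates 1, 2 and 4. These levels rest on 33, 180 and 88 counts in odo1i and 15, 7 and 17 counts in WT. The odo1i libraries differed widely among themselves, with replicate 1 lowest, and the log2 fold change was 2.89 ± 0.69 (SE). DESeq2, under which 6.41% of all tested genes were called, also called g00019 and g00234.

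Next to g00022 in ID order lie g00019 on one side and g00023 on the other, which differed in direction. g00023 had 1.59, 2.65 and 4.97 CPM in odo1i replicates 1, 2 and 4, against 8.17, 4.10 and 11.6 CPM in WT replicates 1, 2 and 4. The groups overlapped, and the log2 fold change of -1.37 ± 0.54 (SE) was not called.

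The numbers of the IDs fall into blocks by their first 3 digits, in which the genes around g00225 and g00241 form the block beginning 002. This block holds 6 IDs, of which g00227 had no count and g00226 was not tested, with 0, 10 and 15 counts in odo1i and 5, 0 and 7 counts in WT. The 4 tested genes, g00225, g00234, g00241 and g00242, were all higher in odo1i without overlap, with log2 fold changes from 1.11 to 4.28 and a median of 1.88. In the block beginning 005 the 3 tested genes, g00521, g00522 and g00523, were also all higher without overlap, with log2 fold changes of 2.02, 0.69 and 0.49. The blocks were looked at after the values were known. Those beginning 002 and 005 hold called genes that chose the scaffold, so their direction is partly built in. Over all tested genes, 11.7% were higher in odo1i without overlap of the groups. Whether the first digits follow position was checked against the last peak on each of 803 scaffolds with a peak beyond 500000 bases. The highest leading number was equal to the position of that peak in steps of 100 kb or 1 below it on 441 scaffolds, lower by 2 or more on 211 and higher on 151. The last gene of a scaffold need not lie near its last peak, so this check cannot decide whether the digits follow position. ID numbers were not used as positions.

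g00522, the neighbour of g00521, had 7.55, 8.74 and 8.58 CPM in odo1i replicates 1, 2 and 4, against 5.64, 5.41 and 4.38 CPM in WT replicates 1, 2 and 4. Its groups did not overlap, and it was not called. g00417, the gene before g00521, averaged 0.539 ± 0.302 CPM in odo1i and 1.63 ± 1.79 CPM in WT (SD, n = 3 each), with 3.64 CPM in WT replicate 4 against 1.02 and 0.218 CPM in WT replicates 1 and 2.

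In the block beginning 000 the 10 tested genes ran from -1.37 to 2.89 in log2 fold change, with 5 above 0 and a median of 0.021. In the block beginning 008 the 10 tested genes ran from -2.02 to 1.08, with 4 above 0 and a median of -0.12. Both tested genes of the block beginning 004 had log2 fold changes below 0, -0.88 for g00416 and -1.58 for g00417, and neither was called. g00416, at 3.83, 2.45 and 2.39 CPM in odo1i replicates 1, 2 and 4 against 7.10, 4.75 and 4.07 CPM in WT replicates 1, 2 and 4, was the 1 tested gene of the scaffold that lay lower in every odo1i library.

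**Figure D3:**
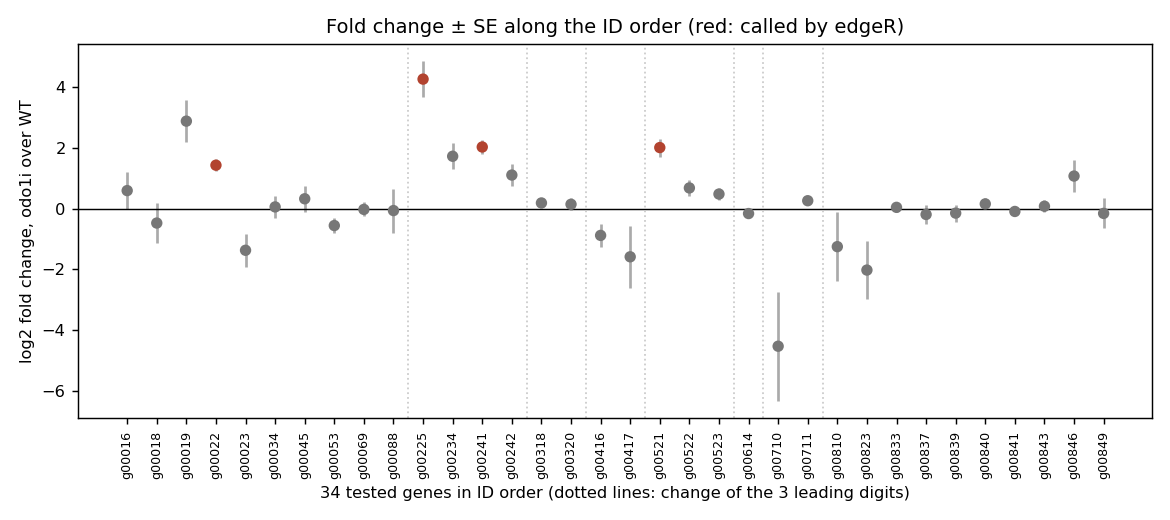
Log2 fold change of odo1i over WT with its standard error for the 34 tested genes in ID order, with the 4 called genes in red and dotted lines where the first 3 digits of the ID number change. The points of the blocks beginning 002, 003 and 005 all lie above 0, and g00710, at -4.53, has the widest error.

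Over all 34 tested genes, 19 had a log2 fold change above 0 and 15 below, against 47.6% above 0 among all tested genes. The median was 0.073, against -0.025 over all tested genes, and 0.014 for the 30 genes that were not called. Without WT replicate 4 the median was 0.23, against 0.0087 over all tested genes. It was 0.20 in limma-voom with quality weights, 0.18 in limma-voom and 0.18 with the replicate block, and 0.013 without odo1i replicate 2. The groups did not overlap at 10 genes that were higher in odo1i and 1 that was lower, where the whole table had 11.7% higher and 10.8% lower. The 10 include the called genes that chose the scaffold, so this count is partly built in. The medians over all tested genes of the scaffold include them too. The number above 0 ran from 18 to 22 over the alternatives that tested 34 or 35 genes.

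A group of 10 genes was steady, which here means a log2 fold change under 0.3 in size and a coefficient of variation (CV) under 25% in both groups. These were g00069, g00318, g00320, g00614, g00711, g00833, g00837, g00840, g00841 and g00843, or 10 of 34, against 29.2% of all tested genes. g00841 had 73.6, 67.7 and 69.8 CPM in odo1i replicates 1, 2 and 4, against 78.8, 73.5 and 71.97 CPM in WT replicates 1, 2 and 4. g00318 had 113.1, 105.05 and 89.5 CPM in odo1i replicates 1, 2 and 4, against 91.7, 104.5 and 72.97 CPM in WT replicates 1, 2 and 4. In both genes the groups overlapped.

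g00614 averaged 86.5 ± 7.65 CPM in odo1i and 96.4 ± 8.65 CPM in WT (SD, n = 3 each), with overlapping groups. g00843, the gene with the highest mean CPM on the scaffold, had 140.1, 153.7 and 164.6 CPM in odo1i replicates 1, 2 and 4, against 120.4, 128.4 and 183.7 CPM in WT replicates 1, 2 and 4. Its highest library belonged to WT and its log2 fold change of 0.084 ± 0.19 (SE) was smaller than its error. Of these steady genes, g00318 and g00320 were the only tested genes of the block beginning 003 and g00614 the only one of the block beginning 006. The blocks beginning 002, 004 and 005, with only 4, 2 and 3 tested genes, held no steady gene.

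At 4 genes a high mean in WT came from WT replicate 4. g00710 had 32.8 CPM in that library and 2.14 and 0.273 CPM in WT replicates 1 and 2, against 1.33, 0.04995 and 0.146 CPM in odo1i replicates 1, 2 and 4. g00810 had 30.1 CPM in WT replicate 4 and 1.31 and 1.58 CPM in WT replicates 1 and 2, against 4.89, 3.60 and 5.41 CPM in odo1i replicates 1, 2 and 4. g00823 had 25.5 CPM in WT replicate 4 and 2.97 and 2.07 CPM in WT replicates 1 and 2, against 1.75, 2.05 and 3.70 CPM in odo1i replicates 1, 2 and 4.

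With g00417 these are the genes of the scaffold at which WT replicate 4 was more than 2-fold above all others in the sense given above. The log2 fold changes of g00710, g00810, g00823 and g00417 were -4.53, -1.25, -2.02 and -1.58 with all libraries, and -1.26, 1.67, -0.016 and -0.21 without WT replicate 4. For g00810 the direction turned, because the other WT libraries lay below all 3 odo1i libraries. g00088, the gene before g00225 in ID order, behaved alike, with 4.57, 3.80 and 4.34 CPM in odo1i replicates 1, 2 and 4, against 1.51, 1.80 and 9.93 CPM in WT replicates 1, 2 and 4. Its log2 fold change was -0.058 with all libraries and 1.35 without WT replicate 4. Without that library 11 genes of the scaffold had a log2 fold change of at least 1 and 3 of at most -1, against 8 and 5 with it. With it, 4.31% of all tested genes were at or above 1 and 9.27% at or below -1. The matching shares without it were not computed, so nothing particular to the scaffold is read from this shift. Over all tested genes the median log2 fold change also moved, from -0.025 with WT replicate 4 to 0.0087 without it.

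Within odo1i, replicate 1 was often the lowest library at the genes that were higher than in WT. Its CPM was 0.739, 0.686, 0.693, 0.737 and 0.566 times the mean of odo1i replicates 2 and 4 at g00022, g00225, g00234, g00241 and g00242. At g00019 and g00846 the ratio was 0.264 and 0.450, and at g00521, the exception, 1.11. Over all tested genes the median ratio was 0.987, with quartiles of 0.801 and 1.19.

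A ratio under 0.75 was found at 7 of the 8 genes of the scaffold with a log2 fold change of at least 1, and at 10 of all 34 tested genes. In the whole table it was found at 20.5% of the tested genes, at 33.3% of the 66 genes that were called higher and at 57.8% of the 761 genes with a log2 fold change of at least 1. Nothing particular to the scaffold is read from this.

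g00846 had 33.6, 74.7 and 74.9 CPM in odo1i replicates 1, 2 and 4, against 19.3, 15.3 and 52.1 CPM in WT replicates 1, 2 and 4. It overlapped between the groups because WT replicate 4 was above odo1i replicate 1, and its log2 fold change was 1.08 ± 0.52 (SE). Limma-voom with library quality weights, which gave WT replicate 4 a weight of 0.239 and called 6.35% of all tested genes, called g00846 and g00234 beside the 4 genes.

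**Figure D4:**
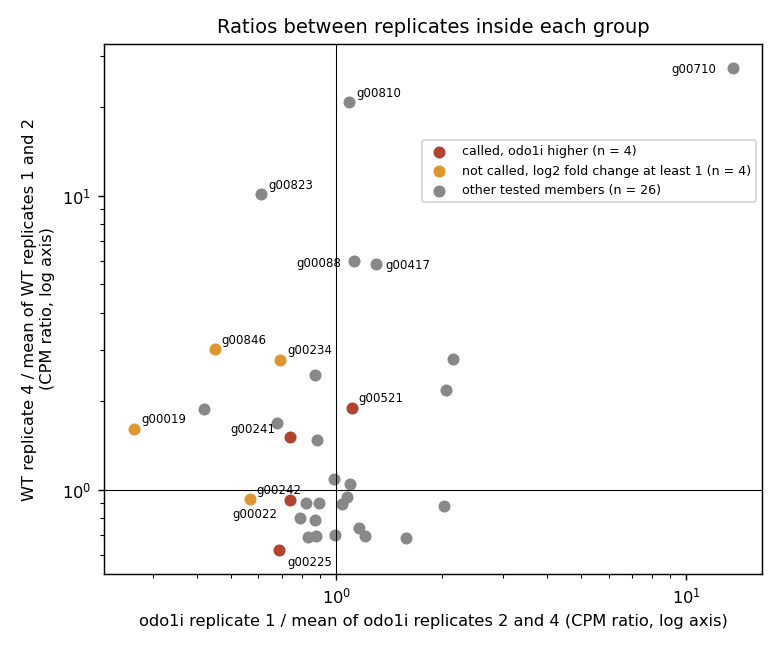
Ratio of odo1i replicate 1 to the mean of odo1i replicates 2 and 4 (horizontal, log axis) and of WT replicate 4 to the mean of WT replicates 1 and 2 (vertical, log axis) for the 34 tested genes, with called genes in red and genes with a log2 fold change of at least 1 that were not called in orange. All red and orange points but g00521 lie left of 0.75, and g00710, g00810 and g00823 lie highest, at 27.2, 20.8 and 10.1 on the vertical axis.

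Set beside other scaffolds, Peaxi162Scf00408 had the most called genes. It was followed by Peaxi162Scf00007 with 3 among 68 tested genes and Peaxi162Scf00071 with 3 among 84. Of 266 scaffolds with at least 20 tested genes, 216 had no called gene and 44 had a higher median log2 fold change than this scaffold. These ranks describe the choice of the scaffold and were not tested.

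The 2 peak lists were made without the RNA data and give a separate view of the scaffold. The pODO1 list held 61 peaks on it and the 35S list 59, with the last peak ending at position 966832. The 234 other scaffolds whose last peak ends within 20% of this position held a median of 70 pODO1 peaks (quartiles 53 and 86.8) and 72.5 35S peaks (quartiles 57 and 91.8). More peaks than on this scaffold were found on 148 of them in the pODO1 list and on 169 in the 35S list. The scaffold was therefore not rich in peaks of either construct, lying within the quartiles of scaffolds of like extent. Each construct had 1 library, so these numbers have no replicate check and carry no test.

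The pODO1 peaks of the scaffold were weaker than their whole list at each quartile, and the 35S peaks lay close to theirs. The authors' fold enrichment, the height of a peak over the peak caller's background, had a median of 3.95 on the scaffold in the pODO1 list (quartiles 3.29 and 4.44), against 4.28 in the whole list (3.63 and 5.05). In the 35S list the median was 3.64 on the scaffold (quartiles 2.97 and 4.37), against 3.70 in the whole list (3.13 and 4.36). A fold enrichment of at least 4 was reached by 28 of the 61 pODO1 peaks (45.9%) and 22 of the 59 35S peaks (37.3%), against 59.6% and 35.8% of the whole lists. Widths had medians of 140 bases (pODO1) and 121 bases (35S), and the widest peaks spanned 288 and 336 bases, both at positions that begin 486108 (pODO1) and 486115 (35S).

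Of the 61 pODO1 peaks 31 overlapped a 35S peak (50.8%, 95% Wilson interval 38.6 to 62.9), and of the 59 35S peaks 31 overlapped a pODO1 peak (52.5%, 40.04 to 64.7). In the whole lists 44.9% and 42.5% were shared, both inside these intervals, which cover counting error only. All 31 pairs had summits within 100 bases of each other, with a median distance of 33 bases, against 27 bases over all 44497 pairs of the lists. The fold enrichment was higher in the pODO1 list at 19 of the 31 pairs, against 74.8% of all pairs. Because the sequencing depth behind each list is unknown, a higher value in one list is not read as more binding.

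The strongest site found with both constructs lay at positions 551972 to 552215 in the pODO1 list and 551972 to 552220 in the 35S list, and its summit was the same base, 552107, in both. Its fold enrichment was 6.77 in the pODO1 list and 5.88 in the 35S list. In the whole lists 4.19% of pODO1 peaks and 3.66% of 35S peaks were at least as strong. The next shared sites by mean fold enrichment lay at 99651 to 99761 (4.93 in the pODO1 list and 5.06 in the 35S list), 50696 to 50840 (5.79 and 4.07), 376168 to 376263 (4.28 and 5.21) and 966683 to 966832 (5.72 and 3.54), with positions from the pODO1 list. At each of these 4 the summits were 6 to 46 bases apart.

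The peak of highest fold enrichment in the 35S list, 7.37 at 805916 to 806024, had no partner in the pODO1 list, and 0.781% of all 35S peaks were as strong. Likewise the second strongest pODO1 peak, 6.21 at 162740 to 162948, had no partner in the 35S list, and it had the highest −log10 q of the scaffold's pODO1 peaks, 14.2. Of the 5 strongest pODO1 peaks 4 were shared, the fifth by strength being 5.603 at 253303 to 253507, and of the 5 strongest 35S peaks 4 were shared, with 5.48 at 226646 to 226939 and 5.18 at 594208 to 594308 among them.

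When both lists were limited to their stronger peaks, few pairs remained. With a −log10 q of at least 5 in both, 3 of 17 pODO1 peaks (17.6%, 95% Wilson interval 6.19 to 41.0) and 3 of 19 35S peaks (15.8%, 5.52 to 37.6) were shared, against 38.6% and 41.5% in the whole lists. With a fold enrichment of at least 4 in both, 4 of 28 (14.3%, 5.70 to 31.5) and 4 of 22 (18.2%, 7.31 to 38.5) were shared, against 26.1% and 40.9%. The whole-list shares lay just above the intervals of the 35S shares and inside those of the pODO1 shares. Each list counts the same 3 or 4 pairs, and the intervals treat neighbouring peaks as independent. Without these limits both shares lay above those of the whole lists, at 50.8% and 52.5% against 44.9% and 42.5%. With 1 library per construct, no difference from the whole lists is read from these shares.

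Peaks were unevenly spread along the scaffold. The first 300 kb, of 966832 bases up to the end of the last peak, held 30 of the 61 pODO1 peaks and 33 of the 59 35S peaks. A run of peaks at most 5000 bases apart held 8 pODO1 peaks between 247415 and 256683, of which 6 were shared, and in the 35S list 7 peaks between 253279 and 256742, of which 5 were shared. Runs of at least 7 peaks at this spacing held 16 of the 61 pODO1 and 7 of the 59 35S peaks of the scaffold. In the whole lists they held 10.01% of all pODO1 and 12.9% of all 35S peaks. Beyond the run that begins at 247415 (pODO1) and 253279 (35S) lay the longest stretch without a peak in each list. It was 276521 to 373034 in the pODO1 list and 266392 to 372978 in the 35S list.

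A further run of 8 pODO1 peaks lay between 863459 and 870164, and here the lists parted. The 35S list had 3 peaks at this place, between 863460 and 866003, each overlapping a pODO1 peak. The last 4 pODO1 peaks of the run, from 868692 to 870164, with fold enrichments of 5.14, 4.42, 4.15 and 4.57, had no 35S partner, and the 35S list had no peak until 943884. With 1 library per construct, a difference in binding and a difference in the depth or background of the libraries cannot be told apart.

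**Figure D5:**
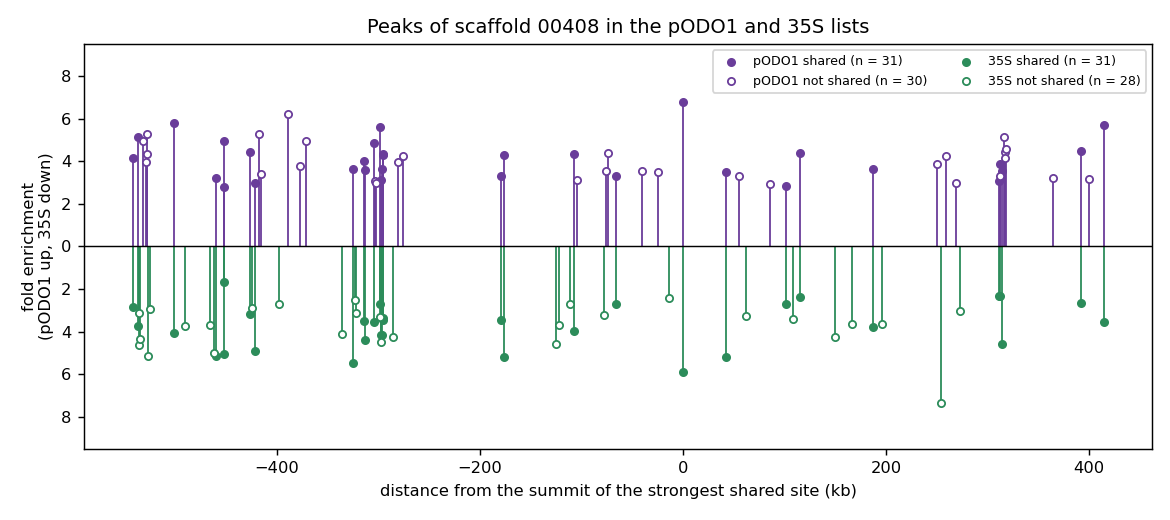
Fold enrichment of the 61 pODO1 peaks (upward) and the 59 35S peaks (downward) of the scaffold against distance in kb from the summit of the strongest shared site, with filled points for peaks that overlap a peak of the other list. Filled points gather left of the stretch without peaks, in the run that holds 8 pODO1 and 7 35S peaks, and the run of 8 pODO1 peaks above 300 kb ends in open points.

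The count table gives no gene positions, so no peak was assigned to g00022, g00225, g00241, g00521 or any other gene, and whether the genes that were higher in odo1i lie nearer to a peak than the others was not analysed here.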

How the data were processed

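For each gene ID the authors deposited raw counts of reads as whole numbers, and for the ChIP 2 peak lists in the 10-column layout of MACS2, without a header. Per the submitters' processing notes the tools were Bowtie2, cutadapt, DESeq2, HTSeq, MACS2 and TopHat2, with no version or role given. Per the labels' protocols, RNA libraries were made with oligo-dT. Use of strand in counting is not given in the sources used here, so genes that overlap on opposite strands cannot be told apart. Near-identical genes cannot be told apart here either, since the treatment of reads that map to several places is not known. The deposited fold enrichment (a ratio) and −log10 q are the authors' values, and the deposited peak score was not used. Other peak values used are the deposited summit offsets in bases. The p and q columns were made by the authors' caller, whose control is not given.

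The test was run over the whole table with edgeR 4.0.16 in R 4.3.3 (filterByExpr, TMM, two-sided quasi-likelihood test, odo1i over WT, Benjamini-Hochberg over 17667 genes). The standard error is the log2 fold change divided by the square root of F. The test was tested on simulated counts. Alternatives used DESeq2 1.42.0 and limma 3.58.1. Replicates of a group were not the same library, as their counts gave chi-square values per degree of freedom from 25.4 to 141.6. Overlaps (at least 1 base) used bedtools 2.31.1, and summaries used pandas 2.3.3, SciPy 1.17.1 and matplotlib 3.10.9. Positions are counted from 1. The genes, gene lists and tests were chosen with earlier results of these data known. Genes were named if called, if the groups did not overlap at a log2 fold change of at least 1 in size, if among the 5 of highest mean CPM, or if next to a called gene in ID order. g00088, g00417, g00416, g00710, g00810, g00823, g00841, g00846 and the steady genes were singled out or described further after their values were seen.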

Additional observations from a re-analysis of the deposited data

How the results depend on the processing

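Against 111 genes called in the whole table, edgeR without a filter called 179, DESeq2 1133, limma-voom with quality weights, chosen after seeing the data, 1122, and edgeR with a replicate block 194. RLE size factors, a CPM filter and limma-voom called 112, 142 and 117. Leaving out 1 library gave 0 to 435 calls in the whole table and 0 to 5 on the scaffold, against 4 with all libraries. The 0 in the whole table, without odo1i replicate 2, stood beside 1673 genes at an unadjusted p under 0.05. The scaffold had 3 to 6 calls under the alternatives that kept all libraries. With the replicate block g00521 lost its call (edgeR adjusted p = 0.0502) and 3 genes remained called. Same-numbered libraries deviated together with correlations of 0.222, 0.109 and 0.120 on the log2(CPM + 1) scale, and 0.189, 0.0977 and 0.115 on edgeR's log-CPM scale, where 1 is under 0.1. The labels do not say what the numbers mark, so pairing was not assumed. The log2 fold change of g00088 turned to 0.50 in limma-voom, 0.49 with the replicate block, 0.013 without odo1i replicate 2, 1.35 without WT replicate 4 and 1.13 with quality weights, with a range of -0.46 to 1.35 when 1 library was left out. That of g00843 turned to -0.026 without WT replicate 1, in a range of -0.026 to 0.29. The other genes named by the rule kept their direction. Over all 34 tested genes of the scaffold the sign changed under some alternative at 11, among them g00810, which turned from -1.25 to 0.22 in limma-voom, 0.26 with the replicate block, 1.67 without WT replicate 4 and 1.24 with quality weights. The cause of these shifts was not tested. Fewer libraries were fitted only where 1 was left out. On the scaffold 17 pODO1 and 19 35S peaks reached a −log10 q of 5, 3 of each shared, while 28 and 22 reached a fold enrichment of 4, 4 of each shared. With an overlap of 0.5 of the shorter peak 27 of each were shared, and with summits within 100 bases 31 of each. Requiring 1 count in place of 10 gave 42 genes.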
